A study of Mus musculus with 8 samples.

Results

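The histone chaperone genes described here are 10 genes whose products hand histones H3 and H4 to DNA, chosen by name out of 34199 annotated genes. Of these, 5 were grouped here as the replication-coupled route (Chaf1a, Chaf1b, Rbbp4, Asf1a and Asf1b). The other 5 were grouped as the replication-independent route (Hira, Ubn1, Cabin1, Daxx and Atrx). This grouping was made by name and was not tested. They were followed in RNA-seq libraries from mouse granulocyte-macrophage progenitors held in self-renewal (iGMPs, Lys-GFP-ER-HoxA9 cells of C57Bl/6 origin) by HOXA9 fused to the estrogen receptor, which is active only with estradiol in the medium. All groups therefore carry the ER-HoxA9 fusion and the GFP reporter under the lysozyme promoter, and all are Lys-GFP-ER-HoxA9 iGMPs. The paper describes separate clones for the shRNA and for its control vector. Where groups come from different clones, clone and treatment cannot be told apart. There were 4 groups of 2 libraries. The t0 group was sampled at 0 h in 150 ng/ml estradiol. The CAF-1 OFF group received 500 µM IPTG for 48 h, still in 150 ng/ml estradiol, which switched on an shRNA against Chaf1b. The IPTG control received IPTG for 48 h in 150 ng/ml estradiol; its label gives no IPTG dose, and the methods describe a vector with a spacer sequence for such cells. The HOXA9 OFF group was kept for 48 h without estradiol. The labels do not say which vector the t0 cells carried, nor what the replicate numbers stand for. The study's supplement describes RNA-seq of independent subclones without tying them to these libraries, so the p-values below measure only the spread between these libraries, which may be technical.

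During S phase, CAF-1 places newly made H3 and H4 behind the replication fork. Its subunits are CHAF1A, which binds the sliding clamp PCNA, CHAF1B, and the histone-binding protein RBBP4, which also serves in other chromatin complexes. ASF1A and ASF1B are paralogs that bind the H3-H4 dimer and pass it on, ASF1B mainly in dividing cells. Outside replication, the HIRA complex (HIRA, UBN1 and CABIN1) deposits the replacement variant of H3 in active chromatin, and DAXX with the chromatin remodeler ATRX deposits it at telomeres and repeats.

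The promoters of the ASF1 paralogs and of the subunits CHAF1A and CHAF1B are shown because the members of each pair had different values across the groups. Each sequence is the 250 bases before the transcription start in RefSeq (GRCm38.p6), written 5′ to 3′ on the gene's strand. Capitals mark matches on either strand to 3 promoter motifs: the core of an E2F site (TTCCCGC), the cell-cycle homology region (TTTGAA) and the CCAAT box (CCAAT, or ATTGG on the opposite strand).
Chaf1a promoter, GRCm38.p6 chr17:56040166-56040415, plus strand: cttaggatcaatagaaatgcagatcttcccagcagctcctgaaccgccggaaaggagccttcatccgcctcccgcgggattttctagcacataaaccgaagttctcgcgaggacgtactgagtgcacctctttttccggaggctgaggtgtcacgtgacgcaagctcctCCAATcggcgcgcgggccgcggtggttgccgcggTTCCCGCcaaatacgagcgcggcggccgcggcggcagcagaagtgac
Chaf1b promoter, GRCm38.p6 chr16:93883651-93883900, plus strand: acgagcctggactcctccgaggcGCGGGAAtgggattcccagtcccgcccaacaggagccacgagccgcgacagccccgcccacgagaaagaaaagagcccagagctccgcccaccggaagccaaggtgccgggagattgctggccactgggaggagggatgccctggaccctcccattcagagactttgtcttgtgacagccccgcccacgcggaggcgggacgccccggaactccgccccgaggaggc
Asf1a promoter, GRCm38.p6 chr10:53596711-53596960, plus strand: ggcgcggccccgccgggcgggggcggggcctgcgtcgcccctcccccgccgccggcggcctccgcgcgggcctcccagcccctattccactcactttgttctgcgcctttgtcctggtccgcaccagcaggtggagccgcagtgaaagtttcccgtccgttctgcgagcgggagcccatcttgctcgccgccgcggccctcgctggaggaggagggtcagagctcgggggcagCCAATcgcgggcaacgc
Asf1b promoter, GRCm38.p6 chr8:83955444-83955693, plus strand: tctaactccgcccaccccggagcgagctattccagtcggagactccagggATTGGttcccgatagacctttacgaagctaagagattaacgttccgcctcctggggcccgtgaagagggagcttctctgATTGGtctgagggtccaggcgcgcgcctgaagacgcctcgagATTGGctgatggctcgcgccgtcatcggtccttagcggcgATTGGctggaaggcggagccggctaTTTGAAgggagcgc

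The motif content of these promoters differed between paralogs. Within the window of 250 bases before to 50 bases after the start, the E2F core was found in 4.66% of 27025 mouse promoters and in 2 of the 10 members, Chaf1a and Chaf1b. In Chaf1a its match begins at position -47 from the start. Chaf1b holds 2 copies, at -227 and 27, the latter outside the printed stretch. The cell-cycle homology region was present in 18.1% of all promoters and in 1 member, Asf1b, at -14. CCAAT boxes are common, in 37.9% of promoters, and were found in 8 of the 10 members, all but Chaf1b and Hira. Asf1b had 4 of them, at -200, -121, -79 and -39, as many as Atrx, while Asf1a had 1, at -17. The 3 motifs do not overlap in these windows. These matches are letters in a window, chosen with the sequences in view, and no binding was measured.

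In genome build mm9 (GENCODE vM1 annotation), Chaf1a spans chr17:56179827-56206973 and Chaf1b chr16:93884146-93906360. Rbbp4 lies at chr4:128984344-129012614. The ASF1 genes are on different chromosomes, Asf1a at chr10:53316767-53329019 and Asf1b at chr8:86479406-86494096. The HIRA complex genes are Hira (chr16:18877130-18970402), Ubn1 (chr16:5050161-5086378) and Cabin1 (chr10:75108855-75227102). Daxx occupies chr17:34046359-34052534 and Atrx chrX:102992954-103124736. Rbbp4 was the only member with 50-base stretches of its transcript repeated elsewhere in the genome, 65 of 4358 stretches (1.49%). Exons overlap a gene on the opposite strand for Chaf1a (144 bases shared with Ubxn6) and for Rbbp4 (782 bases with Sync and 796 with Gm17525), and Hira shares 81 exonic bases with Gm15797 on its own strand. Whether the counting used strand is not given in the sources used here, so reads in those overlaps may be split or mixed.

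Libraries held 14044284 to 22423837 counts in genes, and the 10 members took 0.104% to 0.170% of them. The smallest member count in any library was 186, for Chaf1b in CAF-1 OFF, so all 10 were well measured and all were among the 13080 genes tested. Progenitor markers were present in every library. The summed level of 8 progenitor genes was 11507 to 15397 CPM (counts scaled to library size) in t0. It was 16571 to 16727 CPM in CAF-1 OFF and 5802 to 7937 CPM in HOXA9 OFF. Mpo alone gave 6449 and 3988 CPM of the sum in t0 and 7749 and 7807 CPM in CAF-1 OFF. Its log2 fold change there was 0.58, not called, and the median of the 8 genes in CAF-1 OFF was 0.04. In HOXA9 OFF, 5 of the 8 fell, beside 22.1% of all tested genes, among them Cd34 (-2.86 on the log2 scale). Elane was at 0.70 there, not called, and rose in CAF-1 OFF (1.61, adjusted p = 0.0334 by edgeR). The summed level of 10 neutrophil genes was 108 to 119 CPM in t0, 1311 to 2310 CPM in CAF-1 OFF and 7647 to 11076 CPM in HOXA9 OFF. All 10 rose in HOXA9 OFF, beside 25.2% of all tested genes, and 6 in CAF-1 OFF, beside 10.5%, where Mmp8 alone gave 1091 and 1937 CPM of the sum and S100a8 28.0 and 44.5 CPM. Elane, Mpo and Mmp8 were named after their values were seen. Markers of lymphoid, erythroid and stromal cells summed to 13.2 to 57.7 CPM over the 8 libraries, with Cd3e at 0 counts in every library and Ms4a1 and Hba-a1 at 2 counts or fewer. In bulk RNA, fewer cells of a type and less RNA per cell cannot be told apart. The part of differentiation in the values below was not tested.

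At t0 the level per transcript length was highest for Rbbp4. Levels between genes are given as CPM per kilobase of the longest protein-coding transcript, and here Rbbp4 stood at 142 CPM per kilobase. Asf1b (53.1), Chaf1b (51.3), Chaf1a (39.9) and Hira (39.3 CPM per kilobase) followed. Asf1a had 28.3, Daxx 21.8, Ubn1 20.8, Atrx 14.8 and Cabin1 13.6 CPM per kilobase. Chaf1a and Hira overlapped between their libraries, as did Daxx with Ubn1 and Atrx with Cabin1, and these neighbours cannot be ranked. The replication-coupled genes were thus 5 of the first 6 in t0. The length chosen matters for this order: with all annotated exons merged, Chaf1b dropped from place 3 to place 7, at 19.7 CPM per kilobase. The order in the IPTG control was that of t0. In CAF-1 OFF, Chaf1b was the lowest of the 10, and in HOXA9 OFF Asf1a was the lowest, at 12.2 CPM per kilobase, while Ubn1 stood in place 3 at 31.2, within the spread of Chaf1a.

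**Figure D1:**
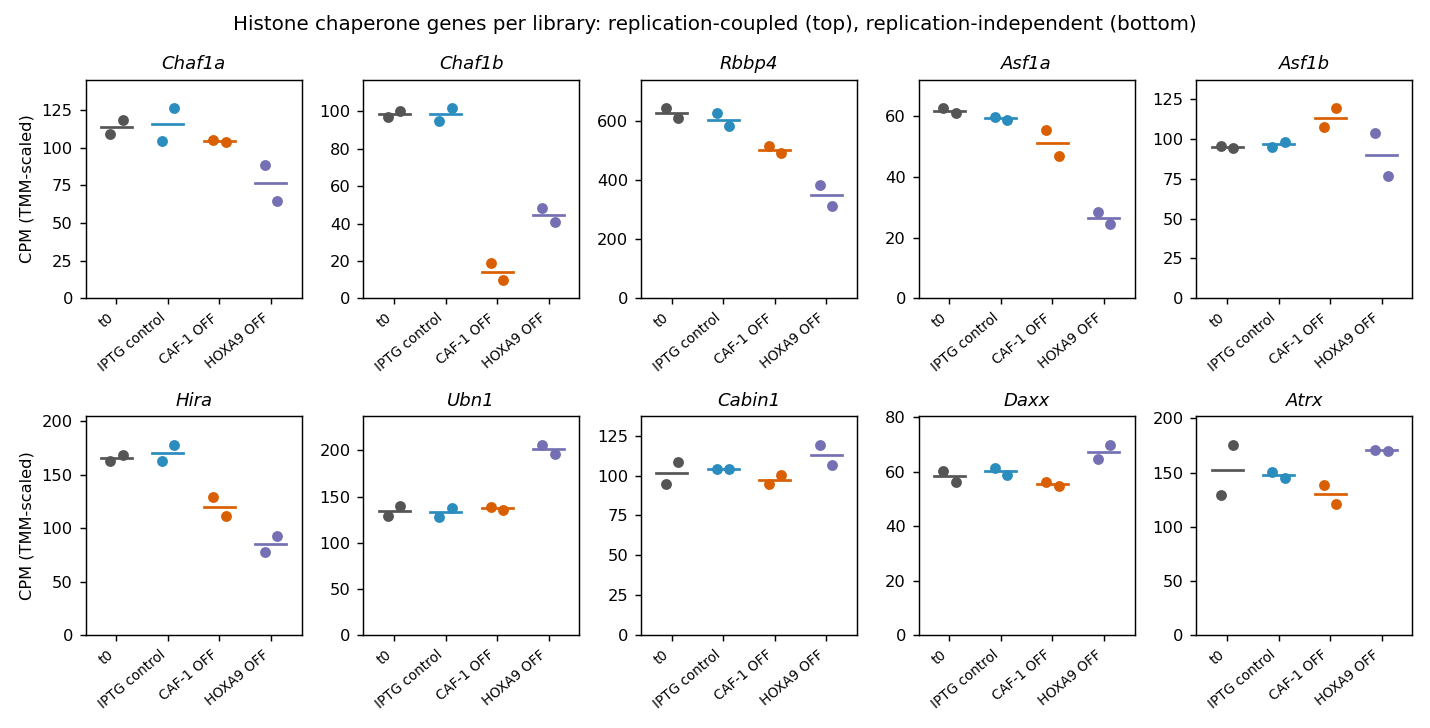
TMM-scaled CPM of each histone chaperone gene in the 8 libraries, with the replication-coupled genes in the upper row and the replication-independent genes in the lower row. Each point is a library, each bar the mean of 2, and every vertical axis starts at 0; Chaf1b is lowest in CAF-1 OFF, while Asf1a, Hira and Rbbp4 are lowest in HOXA9 OFF.

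Depletion of CAF-1 was visible in the gene the shRNA targets. Chaf1b, the targeted subunit, had 96.8 and 100.3 CPM in t0, 95.1 and 101.7 CPM in the IPTG control, and 18.7 and 9.72 CPM in the CAF-1 OFF libraries. Both CAF-1 OFF libraries were far below all others, at 19.0% and 9.87% of the t0 mean. In the edgeR quasi-likelihood test the log2 fold change against t0 was -2.79 (SE 0.27, adjusted p = 0.00236). A gene was called when its Benjamini-Hochberg adjusted p over all tested genes was under 0.05 and it changed at least 1.5-fold. Of the 10 members, Chaf1b was the only one called in CAF-1 OFF against t0, where 14.0% of all tested genes were called, 10.5% higher and 3.50% lower. Against the IPTG control the count was again 1 of 10, Chaf1b at -2.79 (SE 0.27, adjusted p = 0.00264 by edgeR), beside 12.8% of all genes.

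The other CAF-1 subunits did not pass the test in these cells. Chaf1a, the large subunit, had 109 and 118 CPM in t0, 105 and 126 CPM in the IPTG control, and 105 and 104 CPM in CAF-1 OFF. The CAF-1 OFF values lay at the lower edge of the control values, and the fitted log2 fold change against t0 was -0.12, with a 95% interval from -0.49 to 0.25. A fall of Chaf1a larger than the lower bound therefore lies outside the interval. Rbbp4 had 642 and 608 CPM in t0, 626 and 581 CPM in the IPTG control, and 514 and 490.4 CPM in CAF-1 OFF. Its CAF-1 OFF libraries were below all 4 control libraries, but the log2 fold change of -0.32 (SE 0.12) missed the threshold (adjusted p = 0.108 by edgeR).

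The ASF1 paralogs lay on opposite sides of their t0 level after CAF-1 depletion, neither past the threshold. Asf1a had 62.5 and 61.0 CPM in t0, 59.8 and 58.7 CPM in the IPTG control, and 55.3 and 46.8 CPM in CAF-1 OFF. Asf1b had 95.4 and 94.5 CPM in t0, 95.03 and 98.0 CPM in the IPTG control, and 107 and 119 CPM in CAF-1 OFF. Neither gene's CAF-1 OFF libraries overlapped its controls. The fitted log2 fold changes against t0 were -0.27 (SE 0.12, adjusted p = 0.152 by edgeR) for Asf1a and 0.25 (SE 0.14, adjusted p = 0.245) for Asf1b.

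Among the replication-independent genes, Hira moved most in CAF-1 OFF. Hira, which names the complex that deposits the replacement histone, had 163 and 169 CPM in t0, 163 and 178 CPM in the IPTG control, and 129 and 111 CPM in CAF-1 OFF. The CAF-1 OFF libraries lay below all controls, at 77.7% and 67.2% of the t0 mean. The log2 fold change was -0.46 (SE 0.12, adjusted p = 0.034 by edgeR), a 0.725-fold level that is short of the 1.5-fold requirement. Against the IPTG control the value was -0.50 (adjusted p = 0.0294 by edgeR). The adjusted p against t0 rose to 0.221 without CAF-1 OFF replicate 2, so this value rests on few libraries.

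The partners of Hira had t0-like values in CAF-1 OFF. Ubn1, the histone-variant-binding subunit, had 129 and 139.9 CPM in t0, 128 and 138 CPM in the IPTG control, and 139 and 135 CPM in CAF-1 OFF, all within the controls' range. Cabin1 had 94.9 and 109 CPM in t0, 104 and 104 CPM in the IPTG control, and 94.4 and 100.4 CPM in CAF-1 OFF, so the groups overlapped. For Ubn1 the 95% interval of the log2 fold change ran from -0.18 to 0.25 and for Cabin1 from -0.31 to 0.19. Daxx, the histone-binding partner in the other route, had 60.4 and 56.3 CPM in t0, 61.5 and 58.8 CPM in the IPTG control, and 56.3 and 54.6 CPM in CAF-1 OFF. Atrx, the remodeler, had 129 and 176 CPM in t0, 151 and 145 CPM in the IPTG control, and 139 and 121 CPM in CAF-1 OFF. The t0 libraries differed from each other more for Atrx than for any other member, and its interval was wide, from -0.57 to 0.12. For Daxx, whose CAF-1 OFF and t0 libraries overlapped, the interval was -0.31 to 0.16.

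**Figure D2:**
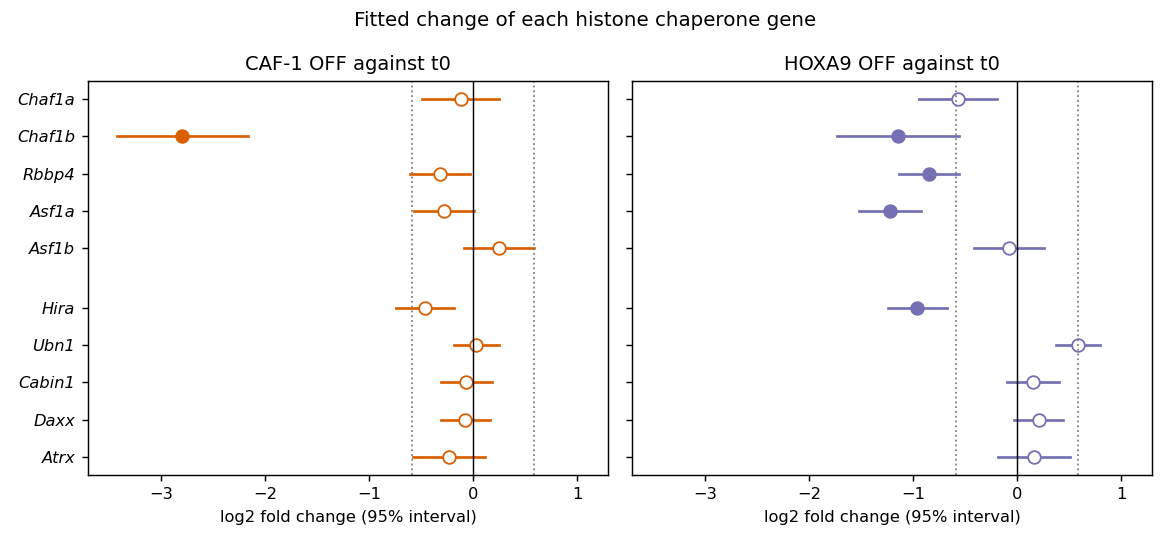
Fitted log2 fold change of each histone chaperone gene against t0 (points) with its 95% interval (lines), in CAF-1 OFF (left) and HOXA9 OFF (right). Filled points are genes called at an adjusted p under 0.05 and at least 1.5-fold, dotted lines mark 1.5-fold; 1 gene is called in CAF-1 OFF and 4 in HOXA9 OFF, and both comparisons use the same t0 libraries.

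Without estradiol, 4 of the 10 genes fell and none rose past both thresholds, beside 47.2% of all tested genes called in this comparison. The direction split was 0 of 10 higher, beside 25.2% of all genes, and 4 of 10 lower, beside 22.1% of all genes. The genes were Chaf1b, Rbbp4 and Asf1a of the replication-coupled group and Hira of the other.

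Asf1a had the lowest mean level relative to t0, but overlapped Chaf1b, whose libraries were at 49.0% and 41.6% of its t0 mean. For Asf1a the HOXA9 OFF libraries held 28.4 and 24.6 CPM, beside 62.5 and 61.0 CPM in t0. These are 45.9% and 39.8% of its t0 mean. The log2 fold change was -1.22 (SE 0.13, adjusted p = 0.000138 by edgeR). Its paralog Asf1b stood at 103 and 76.4 CPM, on either side of the t0 values of 95.4 and 94.5 CPM. For Asf1b the log2 fold change was -0.08 with a 95% interval from -0.42 to 0.26. The HOXA9 OFF libraries disagreed for Asf1b: the fitted value was 0.13 without replicate 2 and -0.31 without replicate 1.

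The CAF-1 subunits were lower in HOXA9 OFF by different amounts. Chaf1b held 48.3 and 41.0 CPM there, all below the t0 and IPTG control libraries and above both CAF-1 OFF libraries. Its log2 fold change was -1.14 (SE 0.25, adjusted p = 0.00574 by edgeR). Rbbp4 held 384 and 312 CPM, below every other library, with a log2 fold change of -0.84 (SE 0.12, adjusted p = 0.000764 by edgeR). Chaf1a held 88.8 and 64.8 CPM, also below every other library. Its log2 fold change of -0.56 (SE 0.16, adjusted p = 0.018 by edgeR) was a 0.676-fold level, just outside the call rule. Chaf1a passed the rule when t0 replicate 1 (-0.63), CAF-1 OFF replicate 1 (-0.59), IPTG control replicate 1 (-0.59) or HOXA9 OFF replicate 1 (-0.81) was left out, and also with scaling to library size alone (-0.76) or no filter on low counts (-0.59).

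Within the HIRA complex, Hira fell while Ubn1 stood above its t0 level. Hira held 77.9 and 92.5 CPM in HOXA9 OFF, below all 6 other libraries, with a log2 fold change of -0.96 (SE 0.12, adjusted p = 0.00036 by edgeR). Ubn1 held 206 and 196 CPM, above all 6 other libraries. Its log2 fold change of 0.58 (SE 0.09, adjusted p = 0.00111 by edgeR) equals a 1.498-fold level, at the edge of the 1.5-fold rule. Ubn1 was called without t0 replicate 2 (0.64) or HOXA9 OFF replicate 2 (0.62), and with DESeq2 (0.60); scaling to library size alone gave 0.39. Cabin1 held 119 and 107 CPM, overlapping t0, with a log2 fold change of 0.15 and an interval from -0.10 to 0.40.

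Daxx and Atrx did not pass the test in HOXA9 OFF. Daxx held 64.7 and 69.9 CPM, above the libraries of every other group, with a log2 fold change of 0.21 (SE 0.10, adjusted p = 0.117 by edgeR). Atrx held 171 and 170.2 CPM, between its t0 libraries, with a log2 fold change of 0.16 and an interval from -0.18 to 0.51. The signs for Cabin1 (-0.04) and Atrx (-0.03) turned when libraries were scaled to total counts alone, a scaling that shifts the median of all genes by -0.18, and Daxx was then at 0.02. Relative to that shift all 3 stayed above the median gene.

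Read as classes, the replication-coupled genes had the lower median in both comparisons. Their median log2 fold change was -0.84 in HOXA9 OFF, with 3 of 5 called, beside 0.16 for the replication-independent genes, with 1 of 5 called, and 0.01 for all tested genes, of which 47.2% were called. The 0.16 became -0.03 with scaling to library size alone. In CAF-1 OFF the medians were -0.27 (1 of 5 called), -0.07 (0 of 5 called) and 0.01, with 14.0% of all tested genes called. The 1 gene called there is Chaf1b, which the shRNA targets, so its fall was set by the design. Both comparisons share the t0 libraries, so they are not independent. All 5 replication-coupled values were below 0 in HOXA9 OFF, from -1.22 for Asf1a to -0.08 for Asf1b, while Hira fell in the other class. In CPM per kilobase, the summed replication-coupled genes were 2.97 and 2.73 times the summed replication-independent genes in t0, 2.81 and 2.74 times in the IPTG control, 2.50 and 2.59 times in CAF-1 OFF, and 2.00 and 1.54 times in HOXA9 OFF. The HOXA9 OFF ratios lay below those of every other library. Rbbp4 alone is a large part of the first sum, and without it the ratios were 1.60 and 1.53 in t0 and 1.19 and 0.897 in HOXA9 OFF. They were then 1.52 and 1.58 in the IPTG control and 1.33 and 1.39 in CAF-1 OFF. Chaf1b, the shRNA target, averaged 51.3 CPM per kilobase in t0 and 7.39 in CAF-1 OFF. The CAF-1 OFF ratios hold that knockdown, so they cannot be read as a change of the other genes. Ratios without Chaf1b were not computed.

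Ratios within a library do not depend on the scaling between libraries. Asf1b to Asf1a, in CPM per kilobase, was 1.86 and 1.89 in t0, 1.94 and 2.04 in the IPTG control, 2.36 and 3.11 in CAF-1 OFF, and 4.45 and 3.79 in HOXA9 OFF. No groups overlapped, and those of t0 and the IPTG control lay close together. Chaf1b to Chaf1a was 1.32 and 1.26 in t0 and 1.34 and 1.19 in the IPTG control. With merged exon lengths its t0 mean was 0.494, so which of these genes is higher in t0 depends on the length, while the order of the groups does not. It was 0.264 and 0.138 in CAF-1 OFF and 0.805 and 0.937 in HOXA9 OFF, so Chaf1b was lower relative to Chaf1a in both. Hira to Ubn1 was 1.94 and 1.84 in t0, 1.94 and 1.98 in the IPTG control, 1.42 and 1.26 in CAF-1 OFF, and 0.579 and 0.721 in HOXA9 OFF. Daxx to Atrx varied as much within t0 (1.80 and 1.23) as between groups. With 2 libraries a group, an exact permutation test of such a ratio cannot give a two-sided p below 0.333, so none was run.

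**Figure D3:**
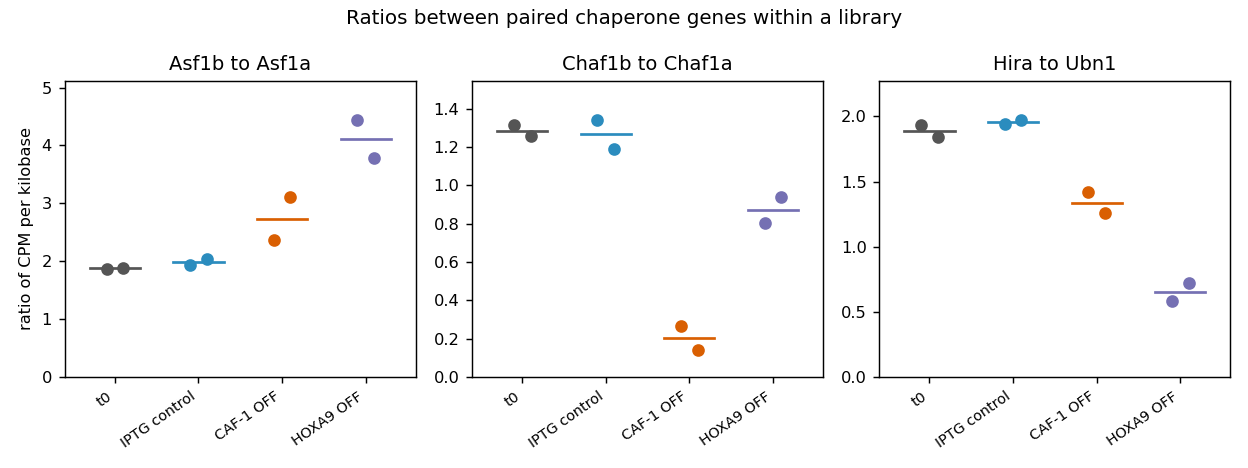
Ratio of CPM per kilobase between 2 chaperone genes within each library, by group. Points are libraries, bars are means of 2 and each axis starts at 0; Asf1b to Asf1a is highest in HOXA9 OFF (3.79 and 4.45), Chaf1b to Chaf1a is lowest in CAF-1 OFF, and Hira to Ubn1 is lowest in HOXA9 OFF.

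No chaperone gene passed the test in the IPTG control against t0. None of the 10 members was called, and 0% of all tested genes were called by edgeR (100 genes had an unadjusted p under 0.05, none of them a member; DESeq2 called 5 genes). The fitted log2 fold changes of the members ran from -0.06 for Asf1a to 0.04 for Daxx, and the SE reached 0.25 for Chaf1b.

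Set directly against HOXA9 OFF, CAF-1 OFF differed in 2 of the 10 members, beside 43.5% of all tested genes. Chaf1b was lower in CAF-1 OFF (-1.65, SE 0.26, adjusted p = 0.00145 by edgeR), and Asf1a was higher (0.95, SE 0.13, adjusted p = 0.000628). Among the members with an adjusted p under 0.05 but less than a 1.5-fold difference, Rbbp4 (0.53), Hira (0.50) and Chaf1a (0.44) were higher in CAF-1 OFF, and Ubn1 (-0.55) and Daxx (-0.28) lower. The medians were 0.44 for the replication-coupled genes, -0.28 for the replication-independent genes and 0.04 for all genes. The 0.44 became 0.68 without HOXA9 OFF replicate 1 and 0.22 without replicate 2, and scaling to library size alone gave 0.68 and -0.048. The count of members moved when either HOXA9 OFF library was left out. Scaling to library size alone gave 5, printed without the share of all genes called under that scaling.

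A wider list of 24 other chaperones and partners was examined in the same comparisons, and all were tested. In CAF-1 OFF, 3 of 24 fell and none rose, beside 3.50% and 10.5% of all genes, with a median log2 fold change of -0.18. In HOXA9 OFF, 16 fell and 1 rose, beside 22.1% and 25.2% of all genes, with a median of -0.73. Both sets of values share the t0 libraries, and the difference between the counts was not tested.

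The 3 called in CAF-1 OFF handle histones and ribosome assembly or inhibit a phosphatase. Npm1, the nucleolar chaperone nucleophosmin, had 1140 and 1058 CPM in t0, 1096 and 958 CPM in the IPTG control, 647 and 544 CPM in CAF-1 OFF, and 347 and 307 CPM in HOXA9 OFF. Its log2 fold changes against t0 were -0.88 (adjusted p = 0.00753 by edgeR) in CAF-1 OFF and -1.75 (adjusted p = 4.14e-05) in HOXA9 OFF. Npm3, of the same family, was at -0.79 (adjusted p = 0.00905) and -1.74 (adjusted p = 3.55e-05). Set, a histone-binding inhibitor of acetylation and of the phosphatase PP2A, was at -0.62 (adjusted p = 0.0184) and -1.88 (adjusted p = 3.07e-05). The CAF-1 OFF calls of these 3 genes were lost when t0 replicate 1 (adjusted p from 0.0603 to 0.0961) or CAF-1 OFF replicate 2 (adjusted p from 0.0746 to 0.107) was left out, and that of Set also without t0 replicate 2 (adjusted p = 0.0709) or with scaling to library size alone (-0.58). Near-identical copies limit them too: 48.5% of the 50-base stretches of Npm1, 57.8% of Npm3 and 64.0% of Set recur elsewhere in the genome, so their counts are uncertain.

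The remaining named genes were called in HOXA9 OFF. Nap1l1, a carrier of H2A and H2B, had 519 and 447 CPM in t0 and 178 and 123 CPM in HOXA9 OFF, a log2 fold change of -1.68 (SE 0.19, adjusted p = 0.000215 by edgeR), and 35.7% of its stretches recur elsewhere. Spty2d1, an H3-H4 chaperone linked to transcription, was the only gene of the list to rise, from 37.3 and 38.4 CPM in t0 to 57.7 and 62.4 CPM, at 0.67 (adjusted p = 0.00148). With scaling to library size alone it was 0.48 and not called. The smallest falls among the called genes were those of Anp32b (-0.71, adjusted p = 0.00267), Mms22l (-0.64, adjusted p = 0.00487) and Anp32e (-0.59, adjusted p = 0.00961). Of the stretches of Anp32b, 34.6% recur elsewhere. Anp32e carries the variant H2A.Z off chromatin, and Mms22l works with new H4 at forks; each of these 3 lost its call without HOXA9 OFF replicate 2 (Anp32b -0.54, Mms22l -0.49, Anp32e -0.41), and Mms22l (-0.56) and Anp32e (-0.54) also without t0 replicate 2. Anp32e was short of 1.5-fold with DESeq2 too (-0.57), by its size factors or its own test.

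**Figure D4:**
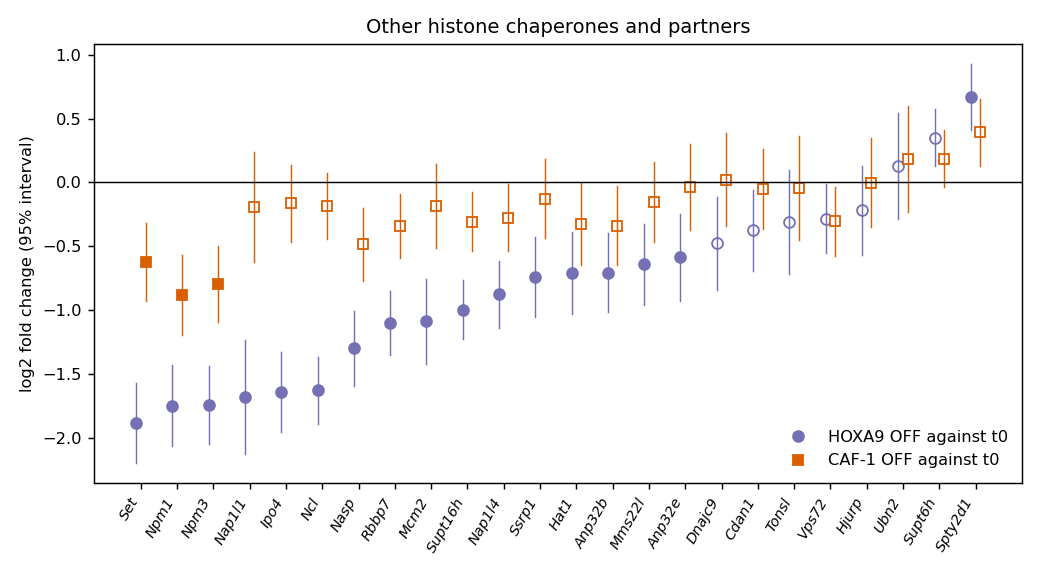
Fitted log2 fold changes against t0 (points) with 95% intervals (lines) for 24 other histone chaperones and partners, ordered by their value in HOXA9 OFF. Circles are HOXA9 OFF, squares CAF-1 OFF, and filled symbols are called genes; 17 circles and 3 squares are filled, and both series use the same t0 libraries.

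Cell-cycle genes moved alongside in HOXA9 OFF, and their part in the chaperone values was not tested. Of 22 S-phase genes, 18 fell and none rose in HOXA9 OFF, beside 22.1% and 25.2% of all genes, with a median log2 fold change of -0.79, and none was called in CAF-1 OFF, with a median of -0.16. Their summed level was 5576 to 6305 CPM in t0, 5605 to 6023 CPM in the IPTG control, 4942 to 5165 CPM in CAF-1 OFF and 2900.0 to 3866 CPM in HOXA9 OFF. Of 14 mitotic genes, 5 fell in HOXA9 OFF, beside 22.1% of all genes lower. There 13 of the 14 were below 0, with a median log2 fold change of -0.41. In CAF-1 OFF 2 rose, beside 10.5% of all genes higher there. In that group 3 of the 14 were below 0, with a median of 0.14. The calls over all genes in CAF-1 OFF numbered 1836, and 157 without t0 replicate 1 or 272 without CAF-1 OFF replicate 2. Pcna, the clamp that recruits CAF-1, had 304 and 260.4 CPM in t0, 236 and 225 CPM in CAF-1 OFF (-0.29, adjusted p = 0.125 by edgeR) and 163 and 193 CPM in HOXA9 OFF (-0.67, adjusted p = 0.00238). Without t0 replicate 1 (-0.55) or HOXA9 OFF replicate 1 (-0.55) Pcna was short of 1.5-fold. Mki67, a marker of cycling cells, was called in CAF-1 OFF at 0.65 (adjusted p = 0.0374 by edgeR). In HOXA9 OFF it stood at 0.48 (adjusted p = 0.0468, short of 1.5-fold), the highest value of the 14 mitotic genes. Top2a, another of them, was at 0.29 in CAF-1 OFF and -0.49 in HOXA9 OFF, called in neither. Of the S-phase genes, Mcm5 was at -0.31 in CAF-1 OFF and -0.70 in HOXA9 OFF. Ccne2 was at 0.41 and -0.80, and both genes were called in HOXA9 OFF only. In HOXA9 OFF Mki67 was called without t0 replicate 2 (0.68) or HOXA9 OFF replicate 2 (0.69), and was at 0.24 without HOXA9 OFF replicate 1. Leaving out any 1 of the t0, CAF-1 OFF or IPTG control libraries ended the CAF-1 OFF call of Mki67 (adjusted p from 0.0572 to 0.203).

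Some genes followed the pattern of single chaperones over the 8 libraries, described by Pearson's r of log2 CPM among 9029 genes of sufficient level. The 8 points fall in 4 groups and share the same libraries, so r describes the likeness and carries no test. The genes most like Chaf1b were Cpsf2 (r = 0.996), Sub1 (0.995) and Ubfd1 (0.989). Ubfd1, for example, averaged 127 CPM in t0, 123 CPM in the IPTG control, 48.8 CPM in CAF-1 OFF and 83.3 CPM in HOXA9 OFF, the same order of groups as Chaf1b. Chaf1a was most like Scrib (0.987), Cntrob (0.984) and Chtf18 (0.980), the last a loader of the PCNA clamp. Asf1b was most like Tmco4 (0.964), Kntc1 (0.962) and Pcyox1l (0.962), and of these Kntc1, a kinetochore gene, averaged 110.1 CPM in t0, 138 CPM in CAF-1 OFF and 97.6 CPM in HOXA9 OFF.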

How the data were processed

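RNA was measured in 8 bulk libraries from mouse iGMPs, 2 per group. The authors deposited raw counts per gene for each library, made with STAR and HTSeq on mm9 as named in the study's methods and processing notes; strand setting and annotation version are not given in the sources used here. Nothing had been normalized. The counts were tested in edgeR 4.0.16 (R 4.3.3; quasi-likelihood test, TMM factors 0.894 to 1.06, low-count filter, 8 libraries in 1 fit), with calls at an adjusted p under 0.05 and at least 1.5-fold. Gene counts per library (14044284 to 22423837) limit precision; the biological coefficient of variation was 18.9%. Alternatives were DESeq2 1.42.0, other scalings, filters and thresholds, a replicate block, and leaving out each library. Named genes were the 10 members and called genes of a list of other chaperones. Up to 8 of the latter were named per comparison, otherwise the 4 highest and 4 lowest changes. Fixed examples of the cell-cycle lists and examples of the marker lists were added. Of the markers, Elane, Mpo and Mmp8 were picked after their values were seen. The 3 genes most like Chaf1a, Chaf1b and Asf1b (mean log2 CPM of at least 3) were also named. Members and lists were chosen with earlier results of these data known.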

Additional observations from a re-analysis of the deposited data

How the results depend on the processing

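Alternatives were followed for the members, the other chaperones named, Pcna and Mki67, and no called value among these changed sign. Other named genes were not followed. The 4 members called in HOXA9 OFF against t0 and Chaf1b in CAF-1 OFF were called under every alternative scaling, filter and tool. Of 750 alternative values of single members, 22 changed sign, none of them called. Member counts under other settings follow without the share of all genes called there. They describe the settings and are not results about the members. With a threshold on the adjusted p alone, members called were 6 in HOXA9 OFF against t0 (Chaf1a lower and Ubn1 higher were added), and in CAF-1 OFF 2 against t0, 2 against the IPTG control and 7 against HOXA9 OFF; at an adjusted p under 0.01 and 2-fold they were 2 in HOXA9 OFF against t0 and 1 in CAF-1 OFF against HOXA9 OFF. Scaling to library size alone moved the HOXA9 OFF medians to -1.04 (replication-coupled) and -0.029 (replication-independent, a change of sign), those of CAF-1 OFF against HOXA9 OFF to 0.68 and -0.048, and the members called there to 5, by its construction lowering all HOXA9 OFF values. Leaving out a library gave 0.053 to 0.25 (replication-independent median) and -1.003 to -0.70 (replication-coupled median) in HOXA9 OFF against t0. In CAF-1 OFF against HOXA9 OFF the replication-coupled median was then 0.22 to 0.68. The members called also moved there, and in CAF-1 OFF against the IPTG control (Hira without CAF-1 OFF replicate 1). The cause was not tested. A left-out library leaves a group with 1 sample, assumed to vary like the others.

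The share of all genes called in CAF-1 OFF is less firm than the member calls. Against t0, 1836 genes were called in all, and the total was 157 without t0 replicate 1, 836 without t0 replicate 2 and 272 without CAF-1 OFF replicate 2; the stricter rule gave 364 and 3579 in HOXA9 OFF. Against the IPTG control the total was 1670, and 237 without CAF-1 OFF replicate 2, 295 without IPTG control replicate 1 and 199 without replicate 2. Same-numbered deviations correlated at 0.301 to 0.475 among t0, IPTG control and HOXA9 OFF, a hint of pairing from the data, but at -0.0443 to 0.0756 with CAF-1 OFF, so the numbers were not taken to pair the libraries. With the replicate block the members called stayed at 1 in CAF-1 OFF and 4 in HOXA9 OFF against t0, with 2123 and 6313 genes called in all. With merged exon lengths the t0 ratios were 1.43 for Asf1b to Asf1a and 0.494 for Chaf1b to Chaf1a, an alternative chosen after seeing the data.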
